A study of Mus musculus with 2 samples.

Results

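The glycosyltransferases and carbohydrate sulfotransferases that build and decorate sugar chains in the Golgi were examined in cultured progenitors of mouse bone marrow, by RNA sequencing, after Cebpa was targeted for deletion. The genes were chosen by symbol, with earlier results of these data known. Table rows with a single symbol were taken of the Mgat, Galnt, Galntl, Gcnt, B3gnt, B3galt, B4galt and Fut families. Rows of the St3gal, St6gal, St6galnac, St8sia, Ext, Extl, Ndst, Hs2st, Hs3st, Hs6st and Chst families were taken likewise. The genes number 117 of 23309 rows. All cells came from lineage-depleted marrow of Cebpaf/f;CreER mice, which carry loxP-flanked Cebpa and a Cre recombinase activated by 4-hydroxytamoxifen (4OHT). All had been transduced with retroviruses for HA-tagged Hoxa9 and Flag-tagged Meis1, a pair of homeodomain proteins that transform such cells, and were grown with interleukin-3. The vehicle group received ethanol and the other group 5 nM 4OHT, each for 72 h. The age of the mice and a control for 4OHT without the floxed alleles are not given in the sources used here, and loss of Cebpa cannot be told apart from what 4OHT or Cre do otherwise. Each group is 1 deposited sample that joins 2 replicates. Every gene therefore has 1 value per group, no spread between replicates can be given, and the differences have no replicate check here.

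Sugar chains are made stepwise by enzymes of the endoplasmic reticulum and Golgi. Most glycosyltransferases add 1 kind of sugar in 1 linkage, and sulfotransferases add sulfate. On N-glycans, Mgat enzymes start the branches, B4galt and B3gnt enzymes lengthen them, and fucosyl- and sialyltransferases cap them. On O-glycans, Galnt enzymes attach the first sugar and Gcnt enzymes branch the core. On proteoglycans, Ext and Ndst enzymes build and sulfate heparan, and several Chst enzymes sulfate chondroitin. In blood cells these chains carry the ligands of selectins, and in granules the chondroitin or heparin chains of serglycin hold proteases.

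Calls were spread over 7 of 10 role groups, which were set by gene symbol, with the Chst genes split by background knowledge. Chst7, which also acts on chondroitin, was placed with the enzymes of GlcNAc and galactose sulfation. The group of Chst8, Chst9 and Chst10 had no tested gene and could hold no call. Levels are in FPKM, fragments scaled to transcript length and sequencing depth, so that genes can be compared. A gene is said to have risen or fallen where the authors' deposited table gives it status OK and a q, their adjusted p-value, under 0.05. Of the 117 genes 72 were tested there and 66 had 1 FPKM or more in the higher group, here called measured. Among them 9 fell and 4 rose, all of them measured. The 13 make up 18.1% of those tested, beside 5.91% of all 11953 tested rows (335 higher, 2.8%, and 372 lower, 3.11%). Since the genes were chosen with earlier results of these data known, the shares are a description and not a test of an excess. The falls were of B3gnt8, B4galt6, Mgat4a, Chst11, Chst13, Chst15, Gcnt4, St6gal1 and Galnt3. The rises were of St3gal2, Gcnt2, B3gnt7 and Ndst2. At q under 0.01 there were 6 falls and 2 rises (2.12% and 1.72% of all tested rows), and at q under 0.1 there were 10 and 7 (3.64% and 3.44%). With a change of at least 1.5-fold also asked for there were 9 and 3 (2.79% and 2.47%), and with 2-fold 2 and 2 (1.61% and 1.14%). Falls ranged from 1.51-fold to 2.67-fold and rises from 1.43-fold to 2.03-fold. The median of log2((4OHT FPKM + 1)/(vehicle FPKM + 1)), a difference that understates the change of low genes, was -0.03 over the 66 measured genes and 0.00031 over all 10989 measured rows. Its middle part was wider for the enzymes, from the 25th percentile of -0.23 to the 75th of 0.22, against -0.10 to 0.10 over all measured rows.

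**Figure D1:**
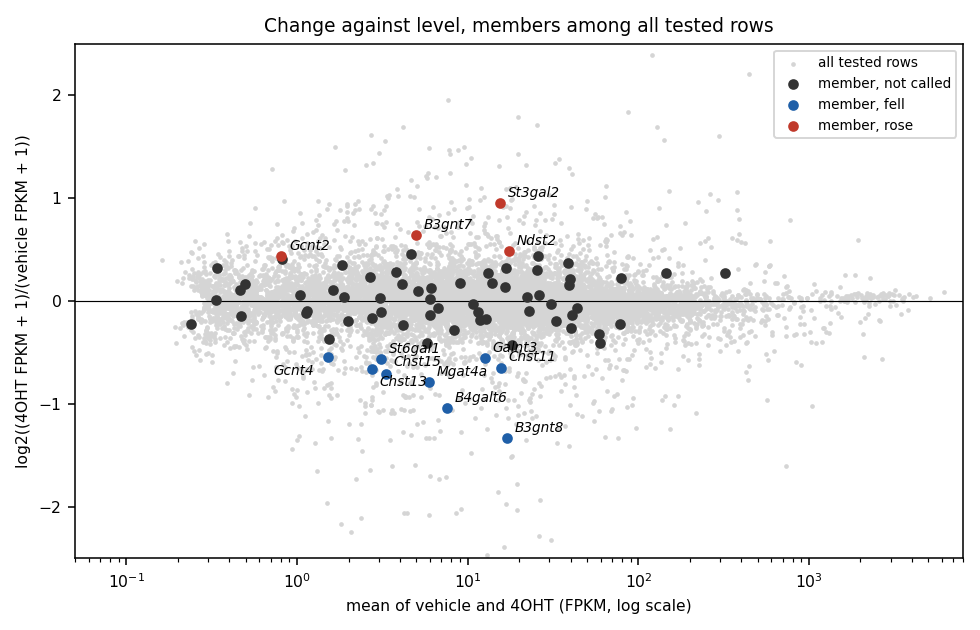
The horizontal axis is the mean of both groups in FPKM on a log scale and the vertical axis the log2 ratio of 4OHT to vehicle with 1 FPKM added to each. Grey points are all tested rows (32 lie outside the plotted range), black points enzymes not called, blue points the 9 that fell and red points the 4 that rose, with B3gnt8 lowest and St3gal2 highest.

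The smallest change called was larger at low levels and differed little from 5 FPKM up. Over all tested rows it was 1.71-fold below 1 FPKM, where 0 of 6 enzymes and 7.15% of all rows were called. It was 1.49-fold between 1 and 5 FPKM, 1.41-fold between 5 and 20 FPKM, 1.39-fold between 20 and 100 FPKM and 1.405-fold above that. These are the lowest values seen, and larger changes were not always called. Of the enzymes, 5 of 21 were called between 1 and 5 FPKM, 5 of 22 in the next range, 3 of 21 between 20 and 100 FPKM and 0 of 2 above. The shares of all rows there were 8.79%, 5.36%, 4.73% and 4.83%. Of the 53 measured enzymes not called, 50 differed by less than the smallest change called at their level, so a difference of their size was not called anywhere at that level. The other 3 were B3gnt5, Hs3st3b1 and B3gnt4. The table holds no read counts, and the depth behind each value is unknown.

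Some values of the whole cell population bear on every result that follows. Cebpa itself stood at 109 FPKM with vehicle and 42.8 FPKM with 4OHT, 39.2% of the vehicle level (q = 0.00165 in the authors' deposited table). The summed level of 13 stem and early progenitor markers was 1100.3 FPKM with vehicle and 1629.7 FPKM with 4OHT, and 9 of the 13 rose. The sums of 5 promyelocyte granule markers were 6168 and 4303 FPKM (4 fell), of 10 late neutrophil markers 83.8 and 31.0 FPKM (4 fell) and of 9 monocyte markers 860.2 and 522 FPKM (6 fell, 1 rose). The other granule marker, Mpo, had 496 and 603 FPKM and was not called. Of the late neutrophil markers only 5 were measured, and Lcn2 held most of their sum, with 57.2 and 21.0 FPKM. Mast cell and basophil markers summed to 673 and 1102 FPKM (2 of 8 rose), most of it Cpa3, with 562 and 975 FPKM. Megakaryocyte markers summed to 53.6 and 104 FPKM (2 of 6 rose), most of it Itga2b, with 40.3 and 88.8 FPKM. The next highest of each list, Mcpt8 and Pf4, were slightly lower after 4OHT and not called. These sums thus mainly follow single genes. Eosinophil markers summed to 23.6 and 35.8 FPKM (1 of 5 rose). T and NK cell markers summed to 33.2 and 66.1 FPKM, nearly all of it Nkg7, the 1 of 7 that rose. B cell and erythroid markers summed to at most 2.202 FPKM, and of these Ebf1, a B cell marker, rose from 0.754 to 1.54 FPKM (q = 0.0301 in the authors' deposited table). Cd3e, Cd3g, Cd4, Ms4a1, Pax5, Car1 and Retnlg were at 0 in both groups. The labelled cell type, hematopoietic progenitors, thus had its markers present in both groups, beside strong granule genes. These shifts run alongside the enzyme changes and their part in them was not tested. In bulk RNA, fewer cells of a type and less RNA per cell cannot be told apart.

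**Figure D2:**
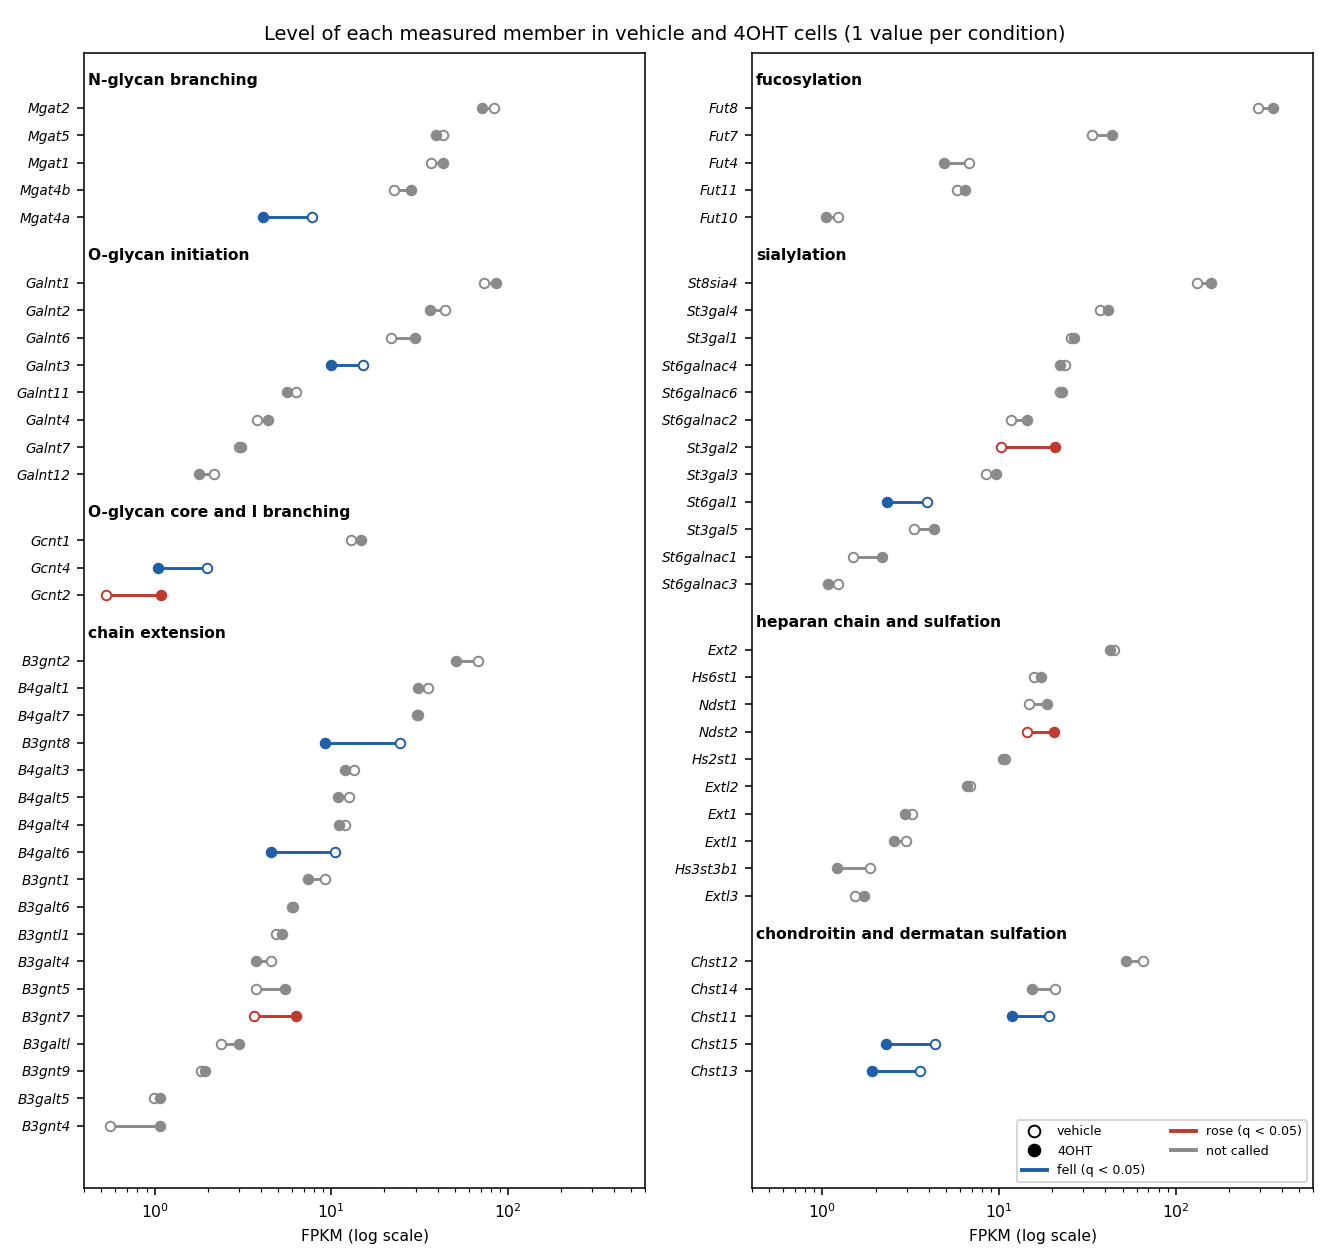
Each row is 1 of the 66 measured enzymes, grouped by role, with its level in FPKM on a log axis in vehicle cells (open circle) and after 4OHT (filled circle). Lines are blue where the gene fell, red where it rose and grey where it was not called; all 5 rows of chondroitin and dermatan sulfation run to the left.

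Chondroitin and dermatan sulfation was the group in which every measured enzyme was lower after 4OHT. Of its 5 measured genes 3 fell, none rose and 2 were not called, and the median log2 ratio was -0.65. Chst11, which sulfates the fourth carbon of the galactosamine units of chondroitin, fell from 19.3 to 11.9 FPKM (chromosome 10 of mm9, 82448242 to 82658636). Chst13, a lesser enzyme of the same reaction, fell from 3.57 to 1.899 FPKM (chromosome 6, 90258345 to 90275179). Chst15, which adds a further sulfate to units that already carry one and so makes highly charged chondroitin sulfate E, fell from 4.36 to 2.28 FPKM (chromosome 7, 139427938 to 139509974). The authors' deposited table gave a q of 0.00165 for Chst11, 0.0375 for Chst13 and 0.00310 for Chst15. Both that were not called stood at higher levels. Chst12, the most abundant enzyme of the same reaction as Chst11, had 65.4 FPKM with vehicle and 52.2 FPKM with 4OHT, with q = 0.361 there. Chst14, which acts on dermatan, had 20.8 and 15.3 FPKM, with q = 0.137 there. Chst3, which sulfates the sixth carbon, was at 0.00256 and 0.0105 FPKM and was not tested. The 6 genes summed to 113 FPKM with vehicle and 83.5 FPKM with 4OHT, a ratio of 0.736. The share of Chst12 in the summed level of Chst11, Chst12 and Chst13 was 74.1% in vehicle cells and 79.1% after 4OHT, with no error to set against that difference.

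The start-site windows of the 3 chondroitin sulfotransferase genes that fell are shown because these genes moved together. Each runs from 250 bases before to 50 bases after a start site in RefSeq, build GRCm38.p6, a later build than the mm9 of the deposited loci. C/EBP proteins bind a palindrome whose core was searched here as TTGCNNAA on both strands (TTNNGCAA on the other), and matches are in capitals. The windows are chr10:82985247-82985546 (plus strand) for Chst11, chr6:90325136-90325435 (minus strand) for Chst13 and chr7:132317179-132317478 (minus strand), 1 of 2 listed, for Chst15. None of the 3 holds these letters, nor does the other Chst15 window.
Chst11: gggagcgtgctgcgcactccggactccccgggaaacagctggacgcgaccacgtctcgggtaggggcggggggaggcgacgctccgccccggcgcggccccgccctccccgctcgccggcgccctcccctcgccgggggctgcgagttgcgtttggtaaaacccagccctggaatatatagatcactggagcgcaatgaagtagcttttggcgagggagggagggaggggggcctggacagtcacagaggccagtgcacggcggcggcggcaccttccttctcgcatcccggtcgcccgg
Chst13: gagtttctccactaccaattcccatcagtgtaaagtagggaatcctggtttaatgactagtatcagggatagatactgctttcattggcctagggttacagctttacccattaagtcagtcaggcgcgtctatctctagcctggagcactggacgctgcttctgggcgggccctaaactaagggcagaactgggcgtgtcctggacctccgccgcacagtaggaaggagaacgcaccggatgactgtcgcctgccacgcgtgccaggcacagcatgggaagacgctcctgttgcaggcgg
Chst15: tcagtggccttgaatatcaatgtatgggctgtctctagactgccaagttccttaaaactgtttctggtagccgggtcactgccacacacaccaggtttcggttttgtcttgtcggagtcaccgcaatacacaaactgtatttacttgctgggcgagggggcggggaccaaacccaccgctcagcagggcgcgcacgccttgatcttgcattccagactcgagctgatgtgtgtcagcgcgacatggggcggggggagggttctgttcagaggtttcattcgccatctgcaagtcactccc

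Chain extension held the largest fall of all the enzymes. Of its 18 measured genes 2 fell, 1 rose and 15 were not called, with a median log2 ratio of -0.06. B3gnt8, which extends N-glycan antennae with polylactosamine repeats, fell 2.67-fold, from 24.6 to 9.20 FPKM (chromosome 7 of mm9, 26412643 to 26414509). B3gnt2, the main polylactosamine enzyme and a partner of B3gnt8, had 67.8 and 50.9 FPKM (authors' deposited table, q = 0.144). B3gnt8 thus made up 26.6% of the summed level of the pair in vehicle cells and 15.3% after 4OHT. B4galt6, 1 of 2 genes for the enzymes that make lactosylceramide, the base of most glycolipids, fell 2.29-fold, from 10.5 to 4.59 FPKM, while B4galt5, the other, had 12.6 and 10.9 FPKM. B3gnt7, which lengthens keratan sulfate type chains, rose from 3.67 to 6.29 FPKM (chromosome 1, 88199796 to 88203880). The authors' deposited table gave a q of 0.00165 for B3gnt8 and for B4galt6, 0.00444 for B3gnt7 and 0.944 for B4galt5. B3gnt5, which starts the lacto series of glycolipids, had 3.74 and 5.50 FPKM, with q = 0.0685 there.

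The other B4galt genes were not called. B4galt1, the general galactosyltransferase of N-glycans, had 35.4 and 30.8 FPKM, B4galt3 13.5 and 11.9 FPKM and B4galt4 11.9 and 11.01 FPKM. All 6 measured B4galt genes were lower after 4OHT, but only B4galt6 was called. B4galt7 and B3galt6, which build the linker that joins heparan and chondroitin to proteins, had 31.0 and 30.5 FPKM and 5.96 and 6.04 FPKM. B3gnt4 had 0.556 and 1.07 FPKM (authors' deposited table, q = 1.00), and it shares its locus with Diablo, at 26.0 and 39.0 FPKM, so its reads may not be separable from those of that gene. The remaining measured genes of the group, B3gnt1, B3gntl1, B3gnt9, B3galt4, B3galt5 and B3galtl, lay between 0.996 and 9.25 FPKM. The group was set by symbol, as all B3gnt, B3galt and B4galt rows. It thus takes in the linker enzymes, and its sum and median cover more than chain extension. Its 23 genes summed to 246 and 202 FPKM, a ratio of 0.821.

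Among the enzymes of N-glycan branching only Mgat4a was called, 1 of 5 measured genes with a median log2 ratio of -0.13. Mgat4a, which adds a GlcNAc branch to the arm begun by Mgat1, fell from 7.80 to 4.10 FPKM (chromosome 1 of mm9, 37496185 to 37593104, q = 0.00165 in the authors' deposited table). Mgat4b, which catalyses the same reaction, was the more abundant and had 22.8 FPKM with vehicle and 28.3 FPKM with 4OHT (q = 0.454 there). Mgat4a and Mgat4b together had 30.6 and 32.4 FPKM, and the share of Mgat4a was 25.5% in vehicle cells and 12.7% after 4OHT. Mgat1, which starts complex N-glycans, had 36.9 and 42.9 FPKM, Mgat2, which starts the second arm, 83.7 and 71.7 FPKM, and Mgat5, which makes the branch favoured by polylactosamine, 42.8 and 39.0 FPKM. Mgat3, Mgat4c and Mgat5b were at most 0.00592 FPKM. The 8 genes summed to 194 and 186 FPKM, a ratio of 0.959 that became 1.04 without Mgat2, the highest.

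**Figure D3:**
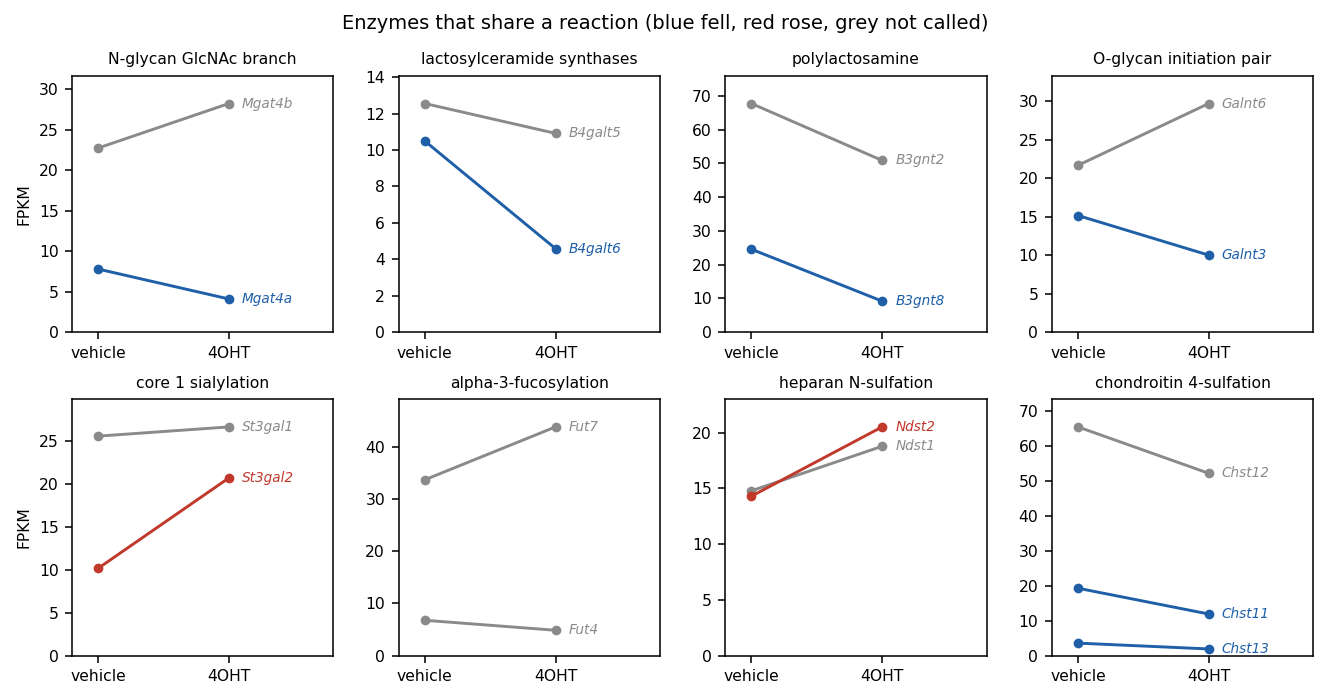
Each panel gives the FPKM, from 0, of enzymes that share a reaction, in vehicle cells on the left and after 4OHT on the right; each point is 1 value. Mgat4a and Mgat4b, Galnt3 and Galnt6, and Fut4 and Fut7 run in opposite directions, and only the blue (fell) and red (rose) lines were called.

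Enzymes that begin O-glycans included 1 fall. Galnt3, which adds the first GalNAc to serine or threonine, fell from 15.2 to 10.01 FPKM (chromosome 2 of mm9, 65920823 to 65962850, q = 0.0139 in the authors' deposited table). Its close relative Galnt6 had 21.7 and 29.7 FPKM (q = 0.0648 there), and the share of Galnt3 in their sum was 41.2% and 25.2%. Galnt1 and Galnt2, the broadly expressed enzymes of this step, were the highest, with 73.3 and 85.7 FPKM and with 43.9 and 36.5 FPKM. Galnt10, below 1 FPKM, had 0.335 and 0.144 FPKM with q = 0.0624 there. Of 18 genes 8 were measured and 7 not called, with a median log2 ratio of -0.05, and the sum was 170.1 and 177 FPKM, a ratio of 1.04 that became 0.947 without Galnt1.

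Both called genes of O-glycan branching stood at low levels, and the median log2 ratio of the 3 measured was 0.17. Gcnt4, a minor enzyme of the core 2 branch on which selectin ligands are built, fell from 1.99 to 1.05 FPKM (chromosome 13 of mm9, 97694644 to 97720869). Gcnt2, which makes the I-type branch of polylactosamine, rose 2.03-fold from 0.533 to 1.08 FPKM (chromosome 13, 40955137 to 41056261). Their q was 0.00569 and 0.0256 in the authors' deposited table. Gcnt1, the main core 2 enzyme of leukocytes, had 12.9 and 14.7 FPKM (q = 0.973 there). It held most of the group's sum of 15.5 and 16.9 FPKM, whose ratio of 1.09 became 0.838 without it. Gcnt3 was at 0 and Gcnt7 below 1 FPKM in both groups.

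Sialylation had 1 rise and 1 fall among 12 measured genes, and 10 were not called, with a median log2 ratio of 0.17. St3gal2, which caps the core 1 O-glycan and gangliosides, rose 2.03-fold, from 10.2 to 20.7 FPKM (chromosome 8 of mm9, 113443765 to 113496397, q = 0.00165 in the authors' deposited table). St3gal1, which acts on the same core, had 25.6 and 26.7 FPKM, so that the share of St3gal2 in their sum was 28.5% and 43.7%. St6gal1, which caps N-glycans through the sixth carbon of galactose and forms the ligand of Cd22, fell from 3.89 to 2.31 FPKM (chromosome 16, 23224813 to 23360423, q = 0.0121 there). St6gal2, the other gene for that linkage, was at 0 in both groups. All 5 measured St3gal genes were higher after 4OHT, but only St3gal2 was called. St3gal4, a contributor to selectin ligands, had 37.1 and 41.5 FPKM. St3gal3 had 8.41 and 9.63 FPKM and St3gal5, the GM3 ganglioside synthase, 3.30 and 4.26 FPKM. St3gal4 shares its deposited locus with Dcps, at 75.7 and 75.9 FPKM, so its reads may not be separable from those of that gene.

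The most abundant sialyltransferase was St8sia4, a polysialic acid synthase, with 131 FPKM with vehicle and 159 FPKM with 4OHT (q = 0.710 in the authors' deposited table). It made up 46.9% and 48.7% of the group's sum of 280.4 and 327 FPKM, a ratio of 1.17. The other St8sia genes were below 1 FPKM. Of the St6galnac genes, St6galnac4 had 23.65 and 22.0 FPKM, St6galnac6 22.1 and 22.7 FPKM and St6galnac2 11.7 and 14.4 FPKM. St6galnac1 had 1.49 and 2.17 FPKM (q = 0.355 there). St6galnac4 and St6galnac6 lie 12 bases apart on chromosome 2, and neither was called.

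None of the 5 measured fucosyltransferases was called, and they included the most abundant gene of all 117. Their median log2 ratio was 0.13. Fut8, which fucosylates the N-glycan core, had 292 FPKM with vehicle and 354 FPKM with 4OHT (q = 0.600 in the authors' deposited table) and held 86.0% and 86.3% of the group's sum of 339 and 410.35 FPKM. Fut7, which completes the sialyl Lewis x ligand of selectins, had 33.7 and 43.8 FPKM (q = 0.219 there). Fut4, which also makes Lewis x, had 6.76 and 4.85 FPKM (q = 0.156 there), and its share of the sum of the pair was 16.7% and 9.97%. Fut10 and Fut11 had 1.22 and 1.05 FPKM and 5.80 and 6.42 FPKM. Fut1 was at most 0.0338 FPKM, and Fut2, Fut9 and the Fut4-ps1 pseudogene row were at 0.

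St6gal1 alone, of the 11 called genes with a RefSeq window, had the searched C/EBP letters, and its matching windows are shown (St3gal2 and B4galt6 had no entry). Of the 2 Fut7 windows 1 is shown because its match is a full palindrome. This window (chr2:25422992-25423291 of GRCm38.p6, plus strand) has the palindrome TTGCGCAA beginning 58 bases before its listed start. The other Fut7 window, chr2:25423444-25423743, has no match. Of the 3 St6gal1 windows, chr16:23225771-23226070 has a match 13 bases before its start and chr16:23290220-23290519 a match 81 bases before its start. The gene lies on the plus strand. Capitals mark the matches.
Fut7: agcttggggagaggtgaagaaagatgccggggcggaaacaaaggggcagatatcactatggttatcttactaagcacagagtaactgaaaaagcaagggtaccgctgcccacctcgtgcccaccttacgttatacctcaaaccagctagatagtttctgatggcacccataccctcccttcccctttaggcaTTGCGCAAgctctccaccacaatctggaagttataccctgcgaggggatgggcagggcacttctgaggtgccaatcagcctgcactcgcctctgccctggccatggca
St6gal1: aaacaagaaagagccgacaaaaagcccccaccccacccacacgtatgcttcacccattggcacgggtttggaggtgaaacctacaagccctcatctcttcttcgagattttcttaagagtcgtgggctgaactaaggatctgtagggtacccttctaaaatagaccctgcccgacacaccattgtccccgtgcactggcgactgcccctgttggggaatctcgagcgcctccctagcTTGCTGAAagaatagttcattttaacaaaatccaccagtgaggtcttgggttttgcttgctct
St6gal1: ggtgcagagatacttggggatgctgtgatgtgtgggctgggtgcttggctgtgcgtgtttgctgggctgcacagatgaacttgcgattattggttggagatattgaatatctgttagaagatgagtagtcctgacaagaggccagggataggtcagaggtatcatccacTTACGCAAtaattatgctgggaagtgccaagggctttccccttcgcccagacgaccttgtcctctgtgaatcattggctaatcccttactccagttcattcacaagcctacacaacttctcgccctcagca
Of the 117 genes 87 were found in the RefSeq table, with 117 windows, and 11 of the 13 called genes were among them. The letters occurred in 9 of these 117 windows (7.69%), beside 3547 of all 32851 windows (10.8%). Of the 18 windows of called genes 2 held them, both of St6gal1. Mgat1, Mgat5 and Extl2, measured and not called, and Chst1, Chst7 and Hs6st2, below 1 FPKM, were the other genes with a match. The median GC content was 61.7% in the 69 windows of measured genes and 63.8% in the 48 windows of genes below 1 FPKM, against 52.7% in all windows.

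Heparan synthesis had 1 rise among 10 measured genes, whose median log2 ratio was -0.05. Ndst2, which replaces acetyl with sulfate groups and is needed for mast cell heparin, rose from 14.3 to 20.5 FPKM (chromosome 14 of mm9, 21542952 to 21553784, q = 0.0419 in the authors' deposited table). Ndst1, which catalyses the same step in most tissues, had 14.8 and 18.8 FPKM (q = 0.294 there), and the share of Ndst2 in their sum was 49.2% and 52.2%. The rise of Ndst2 was the smallest called among the enzymes, at 1.43-fold. The chain-building genes were not called: Ext2 had 44.5 and 42.5 FPKM, its partner Ext1 3.23 and 2.94 FPKM, Extl2 6.87 and 6.54 FPKM, and Extl1 and Extl3 between 1.53 and 2.96 FPKM. Of the sulfotransferases that follow, Hs2st1 had 10.8 and 10.6 FPKM, Hs6st1 15.7 and 17.3 FPKM and Hs3st3b1 1.85 and 1.21 FPKM (q = 0.1002 there). The 20 genes of the group summed to 117 and 126 FPKM, a ratio of 1.07.

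Sulfation of GlcNAc and galactose, the step that makes sulfated selectin ligands in lymph node vessels, had no measured enzyme. None of Chst1, Chst2, Chst4, Chst5 and Chst7 reached 1 FPKM. Chst1 had 0.192 FPKM with vehicle and 0.491 FPKM with 4OHT (authors' deposited table, q = 0.0717), and Chst2 0.127 and 0.132 FPKM. Chst8, Chst9 and Chst10, which act on hormones and nerve cell glycans, were at most 0.00689 FPKM. Of all 117 genes 17 were at 0 in both groups, 34 lay above 0 and below 1 FPKM, 43 between 1 and 20 FPKM in the higher group and 23 above that.

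**Figure D4:**
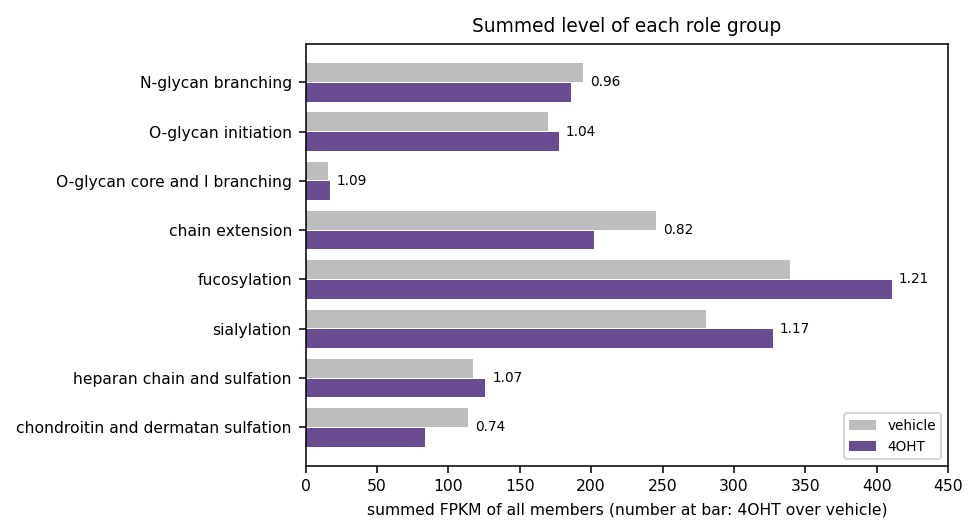
Bars give the summed FPKM of all members, from 0, for each of the 8 role groups with a measured gene, in vehicle cells (grey) and after 4OHT (purple), and the number at each pair is the ratio of 4OHT to vehicle. Among these 8 the ratios lie between 0.74 for chondroitin and dermatan sulfation and 1.21 for fucosylation; those of N-glycan branching, O-glycan initiation and O-glycan branching change side of 1 when the highest gene is left out.

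Other genes of the same pathways were taken from 7 lists of 130 genes, all found by symbol. These lists too were chosen with earlier results of these data known. Of 102 tested, 6 rose and 8 fell (13.7%, beside 5.91% of all tested rows), and the median log2 ratio of the 93 measured was -0.03. Of the tested genes of sugar donor synthesis 2 of 23 were called (8.70%), and of the Golgi donor transporters 0 of 11. Of 22 measured genes of donor synthesis (median log2 ratio -0.04), Papss2, which makes the sulfate donor PAPS, rose from 51.5 to 77.4 FPKM, and the highest, Galk1, had 89.3 and 83.2 FPKM. None of the 11 Golgi donor transporters (median -0.05), of which Slc35b1 was the highest with 69.2 and 58.2 FPKM, was called. Of 9 measured N-glycan trimming genes (median -0.06) Man2a1, a mannosidase that acts before Mgat2, fell from 21.0 to 14.5 FPKM. Its more abundant relative Man2a2 had 39.7 and 41.1 FPKM and was not called. Ganab was the highest with 153 and 143 FPKM. The authors' deposited table gave a q of 0.00444 for Papss2 and 0.0251 for Man2a1.

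Proteoglycan enzymes outside the Chst, Ext and Ndst families held calls in both directions. Of 14 tested, 2 rose, 2 fell and 10 were not called (28.6% called, beside 5.91% of all tested rows). The median log2 ratio of the 13 measured was -0.07. Csgalnact1, which starts the chondroitin chain, rose from 5.66 to 8.62 FPKM, and Sulf2, which removes sulfate from heparan at the cell surface, rose from 0.313 to 1.21 FPKM. Hpse, the heparanase, fell from 6.21 to 3.20 FPKM, and Chpf, a partner in chondroitin polymerisation, fell from 0.473 to 0.112 FPKM. Chpf was thus below 1 FPKM in both groups, and Sulf2 was so with vehicle. Csgalnact2, the highest of the list, had 45.6 and 41.4 FPKM and Chsy1, the chondroitin synthase, 31.9 and 25.5 FPKM. The authors' deposited table gave a q of 0.0139 for Csgalnact1, 0.00165 for Sulf2 and Hpse, and 0.00911 for Chpf.

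The carriers and readers of these chains changed in part. Among 18 tested selectins, ligand carriers and proteoglycan cores (median log2 ratio 0.09 over 13 measured), Cd34, a sialomucin of progenitors, rose from 284 to 493 FPKM, Cd74, which can carry chondroitin sulfate, rose from 0.826 to 4.599 FPKM and the syndecan Sdc1 fell from 1.26 to 0.235 FPKM, each (authors' deposited table, q = 0.00165). Serglycin (Srgn), the granule proteoglycan core, was the highest with 2733 and 2412 FPKM, and the selectin ligand Selplg had 105 and 85.8 FPKM, and neither was called. Among 7 tested sialidases and galectins (median 0.18), Neu1, the lysosomal sialidase, fell from 26.4 to 18.1 FPKM, Lgals3, a galectin that binds polylactosamine, fell from 48.8 to 18.2 FPKM and Lgals9 rose from 278 to 427 FPKM. Lgals1, the highest, had 695 and 763 FPKM. Their q was 0.0175 for Neu1, 0.00165 for Lgals3 and 0.00444 for Lgals9 in the authors' deposited table. Of 20 tested core, glycolipid and other transferases (median 0.01 over 18 measured), only Tpst1, which sulfates tyrosines such as those of Selplg, was called, with a fall from 4.29 to 2.48 FPKM (q = 0.0272 in the authors' deposited table), and B4galnt1, the GM2 synthase, was the highest with 157 and 141 FPKM.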

How the data were processed

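Libraries were prepared from column-purified, DNase-treated RNA by an Illumina TruSeq RNA protocol, per the labels' protocols. The submitters' processing notes name Cuffdiff 2.0.2, Bowtie2 2.0.0.7 and CASAVA 1.8.2, and the build mm9, without their roles. The authors deposited 1 table with an FPKM value per gene and group and a p-value and q-value per gene, per the file headers. The annotation, strand and the handling of multi-mapped reads are not given in the sources used here, and 10 of the 66 measured genes share a deposited locus with another row. Groups came from the labels. With 1 value per group no test was run, and calls are the authors' (status OK, q under 0.05). Medians used Python 3.11.15 with pandas 2.3.3, a pseudocount of 1 FPKM and a minimum of 1 FPKM in the higher group. The sorting of rows into higher and lower calls was checked on simulated data, which says nothing of the authors' test. The members and lists were chosen with earlier results of these data known. Named were every called gene, those with q under 0.1, measured genes of each role group, and the called and highest genes of each list, though some items of the lists are not reported here. Enzyme pairs set against each other were chosen after their values were seen.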

Additional observations from a re-analysis of the deposited data

How the results depend on the processing

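No paired analysis was possible because each group has 1 value that joins its replicates, and for the same reason no replicate could be left out. The 9 falls and 4 rises became 6 and 2 at q under 0.01, 10 and 7 at q under 0.1, 9 and 3 at a change of at least 1.5-fold, and 2 and 2 at a change of at least 2-fold. Requiring 1 FPKM changed neither count. For the 13 called genes, a pseudocount of 0.1 or 5 FPKM changed the size of the log2 ratio but cannot change its direction. Centring on all measured rows shifted each ratio by only 0.00031 and reversed none. Neither is therefore a check of the direction of these genes. The median of -0.03 over the measured enzymes was -0.022 with a pseudocount of 5 FPKM, -0.0026 over all members above 0 and -0.0053 with both groups scaled to the same FPKM sum. With that scaling the ratios of summed levels, 4OHT over vehicle, were 0.974 for N-glycan branching, 1.06 for O-glycan initiation, 1.11 for O-glycan branching, 0.834 for chain extension, 1.23 for fucosylation, 1.19 for sialylation, 1.09 for heparan and 0.748 for chondroitin and dermatan sulfation. Without the highest gene of each group they were, in that order, 1.04, 0.947, 0.838, 0.847, 1.18, 1.13, 1.14 and 0.653. The first 3 of these lie on the other side of 1 from the ratios over all members, since Mgat2, Galnt1 and Gcnt1 hold much of each sum.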
